A study of Homo sapiens with 4 samples.

Results

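MCM2, MCM3, MCM4, MCM5, MCM6 and MCM7 encode the 6 subunits of the replicative helicase, and they were taken here as all probe sets of the array whose gene symbol was one of these names. The 6 genes stand among 10505 with a probe set bright enough to be kept, and 13 probe sets carried their symbols, of which 11 were kept and 2 were too dim. Their signals were compared in RCM-1, a human colorectal cancer cell line from a well-differentiated tumour of the rectum, on 4 arrays, 1 for each duration of treatment with 1 mM methylthioacetic acid (MTA), namely 0, 6, 12 and 18 h. The cells treated for 6, 12 and 18 h were moved to vehicle medium, which holds the solvent acetonitrile, for the rest of 24 h, that is for 18, 12 and 6 h. Length of treatment and time since removal therefore cannot be told apart. The 0 h array is labelled as the control, the labels do not spell out how long that culture was kept before harvest, and every ratio below is to it unless another array is named. Each time had 1 array, so there were no replicates and nothing could be tested, and precision is limited by having only 4 arrays.

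The MCM proteins form a ring of 6 different subunits that is loaded onto DNA at replication origins in G1 phase by ORC, CDC6 and CDT1. In S phase the kinase CDC7 with DBF4, together with CDK2, turns the loaded ring into the working helicase, in which MCM2 to MCM7 join CDC45 and the GINS complex. The genes are known targets of E2F transcription factors, are expressed in cycling cells and fall silent when cells leave the cycle. In an array of whole cultures, fewer cells that express a gene and less of its RNA in each cell cannot be told apart.

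The promoters of these genes are shown so that genes with like signals over the 4 arrays can be set beside the letters they share. Windows from 250 bases before to 50 bases after the gene start were found for 4 of the 6 genes in the RefSeq table of build GRCh38.p14, with 1 window each for MCM2, MCM3 and MCM6 and 3 for MCM7, of which the most upstream is printed. Capitals mark every match to the E2F motif, searched on both strands as TTTCCCGC, TTTCGCGC, TTTGCCGC and TTTGGCGC, and matches that overlap run together.
MCM2, chr3:127598161-127598460, plus strand: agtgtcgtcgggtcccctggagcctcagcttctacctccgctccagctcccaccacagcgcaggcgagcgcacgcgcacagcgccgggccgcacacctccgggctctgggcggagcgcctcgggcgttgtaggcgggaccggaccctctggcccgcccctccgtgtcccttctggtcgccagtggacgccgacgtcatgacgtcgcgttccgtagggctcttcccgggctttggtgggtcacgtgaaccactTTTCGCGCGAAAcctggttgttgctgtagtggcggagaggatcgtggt
MCM3, chr6:52284693-52284992, minus strand: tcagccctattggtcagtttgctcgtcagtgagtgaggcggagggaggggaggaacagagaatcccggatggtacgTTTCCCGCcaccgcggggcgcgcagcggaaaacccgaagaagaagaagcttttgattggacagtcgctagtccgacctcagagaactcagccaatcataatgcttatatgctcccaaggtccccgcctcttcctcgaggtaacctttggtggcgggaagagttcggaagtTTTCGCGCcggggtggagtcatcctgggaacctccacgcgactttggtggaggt
MCM6, chr2:135876394-135876693, minus strand: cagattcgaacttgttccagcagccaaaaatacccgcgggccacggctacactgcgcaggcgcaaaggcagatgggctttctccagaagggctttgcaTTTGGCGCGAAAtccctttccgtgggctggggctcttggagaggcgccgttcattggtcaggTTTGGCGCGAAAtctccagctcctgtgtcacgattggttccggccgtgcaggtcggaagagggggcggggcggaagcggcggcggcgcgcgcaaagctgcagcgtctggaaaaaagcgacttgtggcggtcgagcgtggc
MCM7, chr7:100101348-100101647, minus strand: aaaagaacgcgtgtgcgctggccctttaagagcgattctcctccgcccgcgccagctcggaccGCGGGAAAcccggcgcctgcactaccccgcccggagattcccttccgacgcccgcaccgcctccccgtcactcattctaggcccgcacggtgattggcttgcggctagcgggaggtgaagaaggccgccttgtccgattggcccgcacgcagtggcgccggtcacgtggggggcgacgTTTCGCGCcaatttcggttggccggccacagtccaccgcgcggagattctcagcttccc

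Positions are counted from the gene start, whose first base is 1 and the base before it −1. In MCM2 a match began at base 3 and an opposite-strand match at base 7 overlapped it. MCM3 had matches from bases −174 and −4, and MCM7 from bases −187 and −9. MCM6 had 2 places of overlapping matches, which began at bases −152 and −90. The other windows of MCM7 had no match to these letters. All 4 genes thus held the motif in at least 1 window, against 3.99% of the 27305 genes of the table (those on chromosome 8 were not used). By single windows it was 4 of 6, against 3.31% of 35116 windows and 4.77% of the 10589 windows with 57.3 to 68.3% G and C, the range of the 4 windows printed. CCAAT, read on both strands, was found in windows of 3 of the 4 genes, against 39.7% of all genes, and the E-box CACGTG in windows of 2, MCM2 and MCM7, against 8.77%. These matches describe letters in a window, and binding was not measured.

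The arrays were GeneChip Human Genome U133 Plus 2.0, and the values are MAS5 signals, intensities on a linear scale given once per probe set. At 6, 12 and 18 h the kept probe sets had median log2 ratios of 0.12, −0.28 and −0.45, so the typical probe set also had a lower signal at 18 h. Poly-A control transcripts, added before labelling, had mean log2 ratios of 0.20, 0.03 and −0.25 at 6, 12 and 18 h. The hybridization controls had 0.02, −0.27 and −0.05. The 3′ to 5′ signal ratio of GAPDH ranged from 1.44 to 1.64 over the 4 arrays and that of ACTB from 4.76 to 6.45, and the part of RNA quality in the results was not tested. All 9 markers of colorectal epithelium were kept, with a summed signal of 37239 at 18 h and 51409 at 0 h, most of it from EPCAM and keratins. Of these markers CEACAM5 had the lowest log2 ratio at 18 h, −1.70, with 194 at 18 h and 632 at 0 h, and CDX2, which was dim, the highest, 0.33, with 70.3 at 18 h and 55.9 at 0 h. None of 6 fibroblast markers was kept, with no signal above 28.5, and none of 5 immune markers, with no signal above 25.2 for the 3 that had a probe set. Of 3 endothelial markers only PECAM1 was kept, with 28.6 at 18 h and 41.1 at 0 h.

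All 6 helicase subunits had lower signals on the 18 h array than on the 0 h array, by 2.22-fold for MCM7 to 3.35-fold for MCM3 and MCM5. With each subunit read by its brightest kept probe set, the median log2 ratio was −1.47, against −0.47 over all 10505 genes. At 12 h the median of the 6 was −0.66, against −0.28 over all genes, and at 6 h it was 0.04, against 0.11. The subunits were thus close to their 0 h signals on the 6 h array, lower on the 12 h array and lowest on the 18 h array. The 3 ratios share the 0 h array and are not independent of each other.

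**Figure D1:**
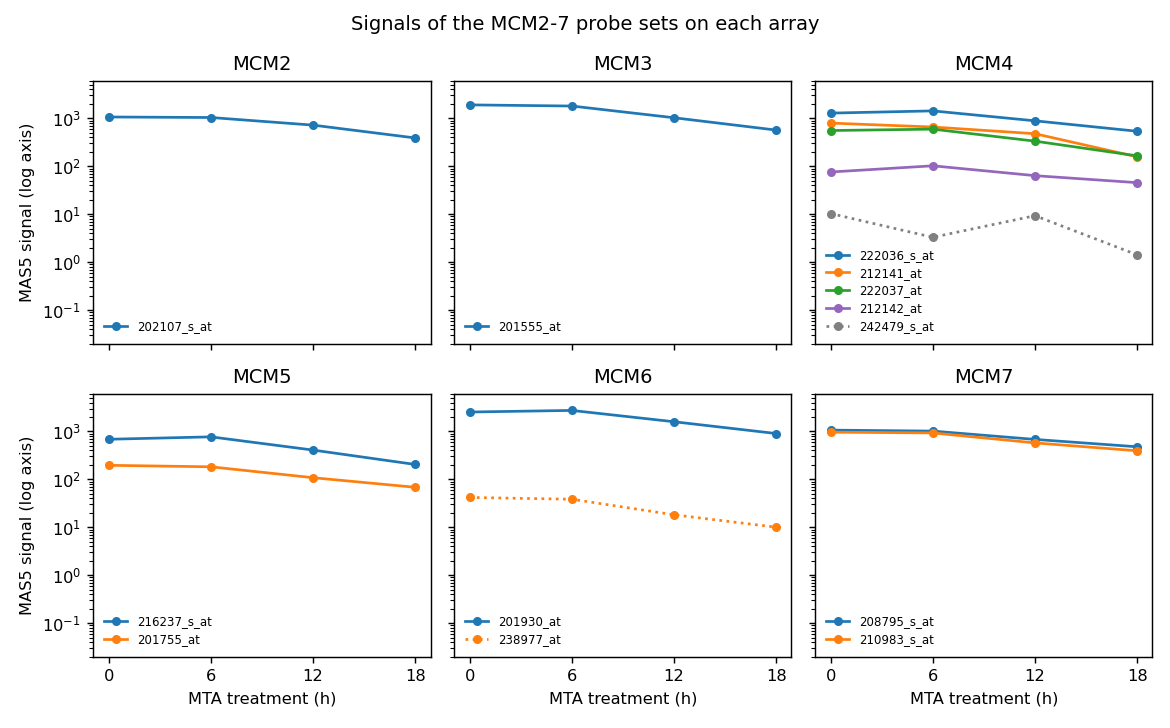
MAS5 signal (log axis) against hours of MTA treatment for each probe set of MCM2, MCM3, MCM4, MCM5, MCM6 and MCM7, with 1 array per time and no error bars; solid lines join kept probe sets and dotted lines those too dim to be kept. Each of the 13 probe sets had its lowest signal at 18 h, with 390.5 at 18 h against 1068 at 0 h for MCM2.

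MCM2 carries a tail that binds histones and lies at the gate through which DNA enters the ring. Its only probe set, 202107_s_at, had signals of 1068, 1042, 723 and 390.5 at 0, 6, 12 and 18 h, and log2 ratios of −0.04, −0.56 and −1.45 at 6, 12 and 18 h. On the log2 scale, though not in signal units, more of this difference lay between the 12 h and 18 h arrays than between 0 h and 12 h. MCM5 forms the other side of the gate. Its brighter probe set, 216237_s_at, had signals of 685, 769.6, 408 and 204 at the 4 times and log2 ratios of 0.17, −0.75 and −1.75. Its dimmer probe set, 201755_at, had 196, 183, 108 and 68.4, with ratios of −0.10, −0.86 and −1.52. Both probe sets of MCM5 were below −1.5 at 18 h, and they differed by 0.22 on the log2 scale.

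MCM3, which touches the ORC and CDC6 loader when the ring is recruited, was read by probe set 201555_at alone. Its signals were 1911, 1807, 1029.95 and 569.9 at 0, 6, 12 and 18 h, with log2 ratios of −0.08, −0.89 and −1.75. By brightest kept probe sets, MCM3 had the lowest of the 6 ratios at 12 h, and at 18 h it shared the lowest value with MCM5. Only 1.41% of all genes had a lower ratio than MCM3 at 18 h, and 1.42% a lower one than MCM5.

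MCM4, MCM6 and MCM7 form a subcomplex that unwinds DNA on its own in vitro. MCM6 had signals of 2535, 2736, 1589 and 902.6 on probe set 201930_at, with log2 ratios of 0.11, −0.67 and −1.49. Its second probe set, 238977_at, was too dim to be kept, with 41.9, 38.5, 18.2 and 10.1, and had −0.12, −1.20 and −2.06. MCM7, the subunit that is ubiquitylated when the helicase is taken off the DNA, was read by a pair of probe sets. These had 1063, 1015, 680.1 and 478 on 208795_s_at and 962, 929, 575 and 394 on 210983_s_at. At 18 h their ratios were −1.15 and −1.29, a difference of 0.13, and both lay above those of MCM2, MCM3, MCM5 and MCM6.

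The probe sets of MCM4, a subunit that CDC7 phosphorylates when origins fire, spread most widely. The brightest, 222036_s_at, had signals of 1287, 1432, 889 and 539 at 0, 6, 12 and 18 h, and a log2 ratio of −1.26 at 18 h. Probe set 212141_at had 797, 660.2, 479 and 158, and a ratio of −2.34, the lowest of the 11 kept. Probe set 222037_at had 557, 596, 335 and 165, with −1.75. The dim 212142_at had 76.2, 103, 63.9 and 45.7, with −0.74, the highest of the 11. All 4 gave lower signals at 18 h than at 0 h, but their ratios ran over 1.60 on the log2 scale.

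Another probe set of MCM4, 242479_s_at, was too dim to be kept, with signals of 10.4, 3.31, 9.36 and 1.43, and its ratio of −2.86 at 18 h rests on very dim readings. Between the brightest probe set of MCM4 and 212141_at the ratio at 18 h differed by −1.08. Over 4676 genes, the difference between the brightest pair of kept probe sets had an SD of 0.479, and 4.81% of these genes differed by more than 1. Among 1480 of these genes with a mean log2 signal of at least 8 on both, the SD was 0.292 and 0.676% differed by more than 1. This spread arises within the arrays and holds no variation between cultures. The size of the MCM4 difference therefore depended on the probe set read. Where in the transcript each probe set lies was not analysed here.

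**Figure D2:**
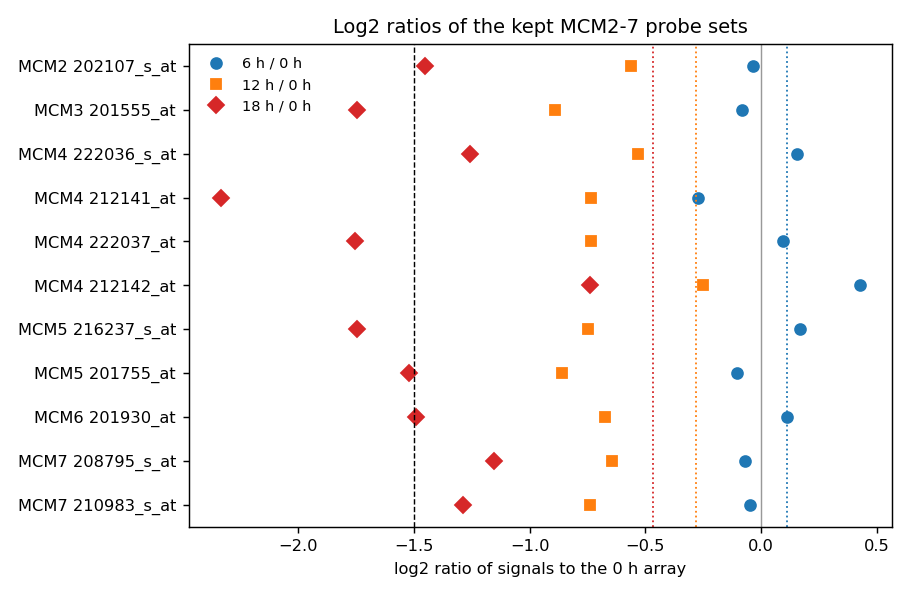
Log2 ratio of signals to the 0 h array for the 11 kept probe sets (rows), with circles for 6 h, squares for 12 h and diamonds for 18 h; dotted lines mark the median of all genes at each time in the same colour and the dashed line −1.5. The 18 h diamonds run from −2.34 to −0.74, both on MCM4, and all lie left of the 18 h median of −0.47.

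The study's threshold for a strong difference was a log2 ratio of 1.5 in size, 2.83-fold. At 18 h, 5 of the 11 kept probe sets were below −1.5, while 3.11% of all kept probe sets were. This count was made here and is not the study's own. The study's list of cell-cycle genes gives MCM5 by 216237_s_at alone and MCM4 by 212141_at and 222037_at. By the brightest probe set, MCM3 and MCM5 were below −1.5, 2 of 6 subunits, against 3.19% of all genes. All 6 were below −1, against 15.8% of all genes. MCM6 at −1.49 and MCM2 at −1.45 lay just outside the stricter threshold. The study formed its own gene groups from these arrays, and MCM3, MCM4 and MCM5 are in them. So are GINS2, GINS3, CDC6, CUL2, MCM9, MCM10, TIPIN, E2F2, E2F8 and MYC, whose ratios are given further on. The direction of all these genes is therefore not independent evidence.

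These counts depended on the scaling of the arrays. Scaling to the poly-A controls, centring on the median of the kept probe sets, dividing by the trimmed mean or quantile normalization each left 1 probe set, 212141_at of MCM4, and no subunit, below −1.5. Below −1 there were 5 subunits with the poly-A scaling, 4 with median centring, and 2, MCM3 and MCM5, with the trimmed mean or quantile normalization. The share of all genes below −1 was then 7.47% with the poly-A scaling, 3.74% with median centring, 3.08% with the trimmed mean and 3.86% with quantile normalization. Scaling to the hybridization controls moved the counts less, with 4 probe sets and 2 subunits below −1.5. It left all 6 subunits below −1, against 13.8% of all genes. The direction at 18 h did not depend on the scaling. All 6 subunits were below 0 in each of 8 settings that can change a ratio. They were also below the median of all genes in each, but dividing an array by a constant could not have changed that. At 6 h the median of 0.04 as deposited was below 0 in 6 of the 8 settings, with −0.17 as the lowest, so it had no settled sign.

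**Figure D3:**
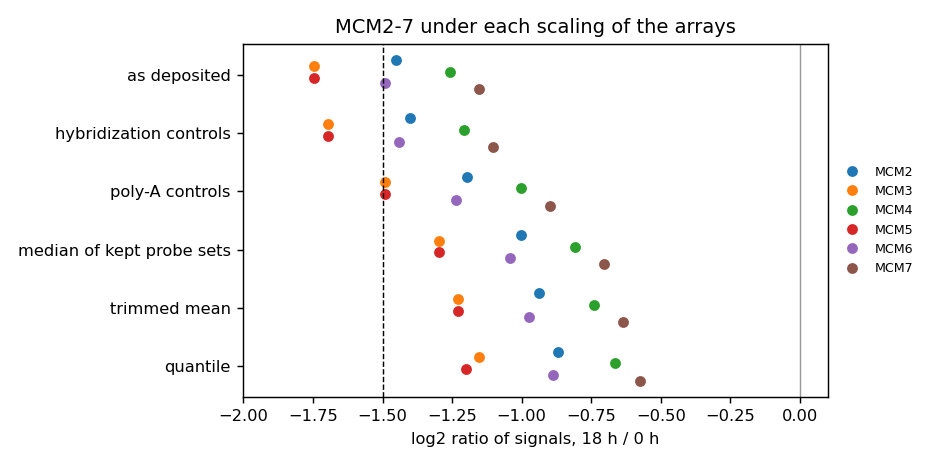
Log2 ratio of signals at 18 h to 0 h (horizontal axis) of the brightest kept probe set of each subunit, under the deposited scaling and 5 other scalings (rows), with a point per subunit and a dashed line at −1.5. The points move right together, from a median of −1.47 as deposited to −0.88 with quantile normalization, and none reaches 0.

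By brightest kept probe sets the order at 18 h, from the lowest ratio, was MCM3, MCM5, MCM6, MCM2, MCM4 and MCM7. Neighbours in this order differed by less than either SD between probe sets given above. The order changed with the probe sets read. By the mean over kept probe sets MCM4 was lower than MCM6 and MCM2. By the median over every probe set, dim ones included, MCM6 at −1.77 and MCM4 at −1.75 were the lowest. Of the 15 pairs of subunits, 4 differed by more than 0.479, the SD over all genes with a pair of kept probe sets, and 8 by more than 0.292, the SD where both were bright, as the probe sets of the 6 subunits are. Beyond the wider SD, the difference was −0.49 for MCM3 minus MCM4, 0.49 for MCM4 minus MCM5, and −0.59 both for MCM3 minus MCM7 and for MCM5 minus MCM7. The pairs with MCM4 rest on its brightest probe set, since the mean over the kept probe sets of MCM4 was −1.52. MCM7 had the highest ratio in each of the 8 settings, but those that divide an array by a constant cannot change the order. The dim probe set 212142_at of MCM4, at −0.74, lay above both probe sets of MCM7. At 6, 12 and 18 h the 6 ratios spanned 0.25, 0.36 and 0.59, against an SD of 0.661 over all genes at 18 h.

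**Figure D4:**
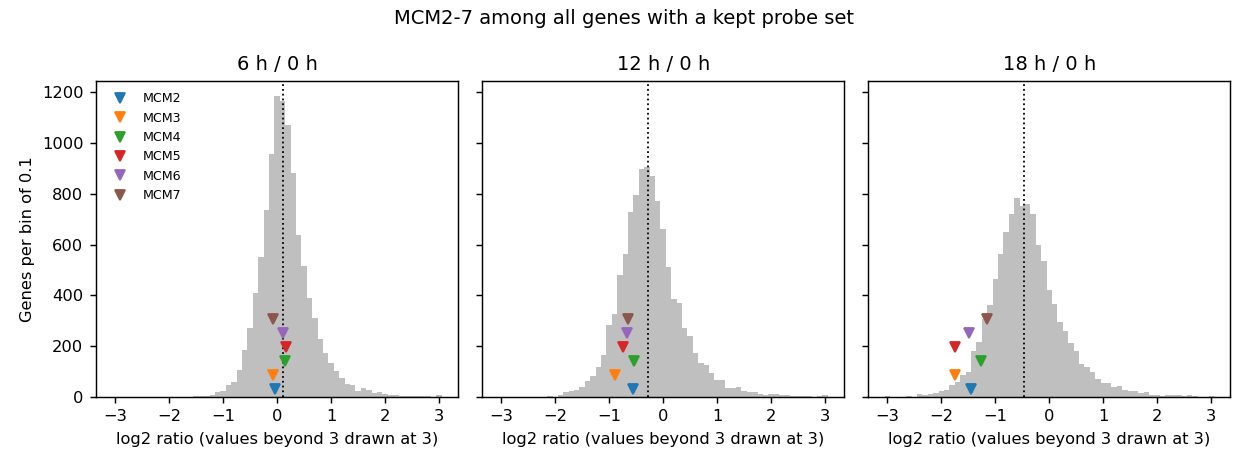
Histograms of the log2 ratio to 0 h over 10505 genes (vertical axis, genes per bin of 0.1) at 6, 12 and 18 h, with a triangle for each subunit at its ratio (the height of a triangle carries no value) and a dotted line for the all-gene median. The triangles lie near the dotted line at 6 h, left of it at 12 h and in the left tail at 18 h, where 3.45% of all genes were below their median of −1.47.

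Ratios between successive arrays leave out the 0 h array. From 6 to 12 h of treatment the log2 ratio (12 h over 6 h) was −0.53 for MCM2, −0.81 for MCM3, −0.69 for MCM4, −0.92 for MCM5, −0.78 for MCM6 and −0.58 for MCM7. The median was −0.74, against −0.39 over all genes. The ratio of 18 h over 12 h was −0.89 for MCM2, −0.85 for MCM3, −0.72 for MCM4, −0.997 for MCM5, −0.82 for MCM6 and −0.51 for MCM7. Here the median was −0.83, against −0.20 over all genes.

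All 6 subunits lay below the median of all genes in both steps. Relative to all genes the step from 12 to 18 h was the larger, with a shift of −0.64 against −0.35 for the step from 6 to 12 h. Of all genes, 2.20% were below the median of the subunits in the step from 12 to 18 h and 12.8% in that from 6 to 12 h. The 12 h array enters both steps. Dividing an array by a constant cannot move these shifts.

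Low signals make MAS5 ratios noisy, so the subunits were also set beside the 2618 genes whose mean signal lay in the same range. These genes had a median log2 ratio of −0.58 at 18 h, and 3.29% of them were below the median of the subunits. GAPDH and ACTB, often used as reference genes, had −0.20 and −0.55.

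Genes that act with the helicase, and regulators of MCM transcription, were counted in 7 lists, in which 50 of 54 genes were measured. At 18 h, 20 of the 50 were below −1 and 11 below −1.5, by their brightest probe set, and none was above 1. The same thresholds were passed by 15.8% and 3.19% of all genes, and these counts were made with the deposited scaling alone. The helicase partners, CDC45 and the 4 GINS subunits, had a median of −1.24, with 3 of 5 below −1. CDC45 had a signal of 71.4 at 18 h against 357 at 0 h and a log2 ratio of −2.32, lower than any subunit by its brightest probe set. GINS2 had −1.74 and GINS1 −1.24. GINS3 had −0.61 on its brightest probe set but −1.62 on a second one. GINS4 was dim, at 31.0 at 18 h and 46.8 at 0 h, and had −0.59.

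The 9 genes of origin loading had a median of −0.72, and 3 of them were below −1. CDC6, the ATPase that brings MCM to ORC, had the lowest at −2.26 with 84.8 at 18 h and 406 at 0 h, and a second probe set had −2.12. ORC5 and GMNN, the inhibitor of CDT1, both had −1.06, with −1.32 on a second probe set of ORC5. CDT1 itself had −0.59, and ORC4 had the highest ratio at −0.34, with 0.17 on a second probe set. By brightest probe sets the loaders of the ring thus covered a wider span than the ring's own subunits. That list has more genes, however, and all kept probe sets of the subunits ran from −2.34 to −0.74.

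Among 9 measured genes of activation and origin firing the median was −0.80, and 2 were below −1. MCM10, which binds the helicase at the fork but is no part of the ring, had −2.16, with −1.83 and −1.16 on dimmer probe sets. CDK2 had −1.15, with −0.79 on a dimmer probe set. The kinase CDC7 had the highest ratio at −0.48 and its partner DBF4 had −0.87. Of the relatives and binders of MCM, MCM9 had −1.81 and MCMBP, which binds MCM subunits outside the loaded ring, −1.55, but second probe sets of these had −0.52 and −0.58. MCM8, the partner of MCM9 in DNA repair, had −0.80, and MCM3AP, an mRNA export factor named for its binding to MCM3, had −0.72.

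In the list of fork protection, 2 of 4 genes were below −1 and the median was −1.15. TIPIN had −1.66 and its partner TIMELESS −0.64. CLSPN had −1.49 on dim readings of 23.3 at 18 h and 65.4 at 0 h. WDHD1, which ties the helicase to DNA polymerase alpha, had −0.81 on its brightest probe set but −1.47 and −1.84 on others. For taking the helicase off DNA, 1 of 5 measured genes was below −1, VCP, the ATPase that extracts the ubiquitylated helicase, at −1.35. LRR1 and CUL2, which form the ligase that ubiquitylates MCM7, had −0.97 and −0.43, with −1.84 on a dimmer probe set of CUL2. UBXN7 had the highest ratio of this list at −0.39, with 0.52 on a second probe set.

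The E2F and RB family and MYC, regulators of MCM transcription, were all measured, 14 genes with a median of −0.98. Of these, 7 were below −1 and 4 below −1.5. E2F2, an activator, had the lowest ratio at −2.12, with 55.8 at 18 h and 243 at 0 h. The repressors E2F8 and E2F7 had −1.90 and −1.65, and MYC had −1.59. E2F1 had −1.14, E2F3 −1.45 and E2F4 −0.89, with −1.48, −1.11 and −1.67 on their second probe sets. RB1 had −0.53 and TFDP2, a partner of E2F proteins, the highest at 0.08, with −0.09 and −0.01 on its other probe sets.

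**Figure D5:**
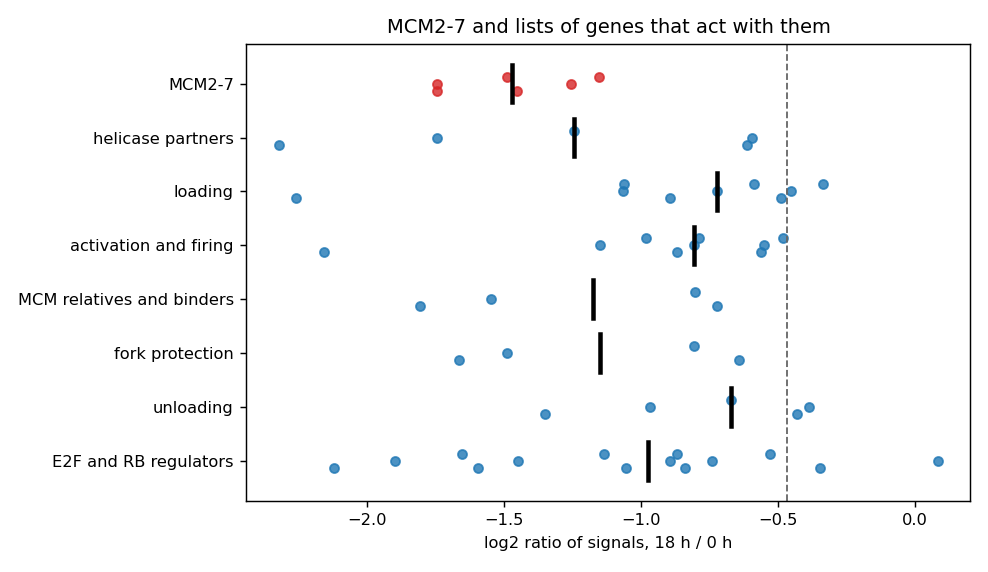
Log2 ratio of signals at 18 h to 0 h (horizontal axis) for the 6 subunits (top row, red) and the measured genes of 7 lists (blue), with a point per gene by its brightest kept probe set, a thick bar at each median; the dashed line is the all-gene median of −0.47. By these probe sets the 6 subunits lie between −1.75 and −1.15, and each of the 7 lists covers a wider range. All kept probe sets of the subunits ran from −2.34 to −0.74. That is wider than the points of unloading, fork protection, and MCM relatives and binders.

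The genes whose 3 log2 ratios to 0 h lay nearest to the median profile of the subunits, by Euclidean distance over the 6, 12 and 18 h ratios, were TOP3A, SFMBT1, SLC25A44, TP53I13, RHOC, AP3M2, POLE2 and RRP7A, at distances from 0.0459 to 0.141. Of the subunits themselves MCM6 was at 0.077, with 2 other genes nearer, and MCM2 at 0.121, with 6 nearer, while MCM3 was the farthest at 0.378, with 236 nearer. The profile is the median of these same subunits, so those in the middle lie near it by construction. RHOC, a small GTPase, had signals of 2247, 2190.01, 1517 and 815 at 0, 6, 12 and 18 h. POLE2, which belongs to DNA polymerase epsilon, had 643, 717, 423 and 233. Second probe sets of several of these genes did not keep the profile, with 0.06 at 18 h for AP3M2 and −0.77 for TOP3A, against −1.40 and −1.51 on the probe sets that were near. The likeness is over 3 ratios that share 1 array.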

How the data were processed

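RNA of RCM-1 cells was hybridised to 4 Affymetrix arrays, 1 per duration of MTA treatment. The authors deposited signal intensities on a linear scale, made by MAS5 in Affymetrix Expression Console (the submitters' processing notes), with the version and scaling target not given in the sources used here. The 62 control probe sets were set aside, and as many probe sets as the study counts as detected, by the highest mean log2 signal, were kept (lowest mean 34.0). Ratios used no pseudocount. Symbols came from the platform annotation, updated by RefSeq (GRCh38.p14). A gene was read by its brightest kept probe set with 1 symbol.

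All probe sets of the 6 members are given. Of each list the lowest and highest gene may be named, with the 8 genes nearest in profile, GAPDH and ACTB. Further list genes named were chosen after their values were seen. The members and lists were chosen with earlier results of these data known. The alternatives were 5 other scalings, a pseudocount of 2.90 (percentile 20 of all signals), 2 other summaries of probe sets, 3 other filters and thresholds of 1 and 2, to which the count below −1 by scaling and the SD of bright pairs were added after seeing the data. The calculation was tested on simulated data. Python 3.11.15 with NumPy 2.4.6, pandas 2.3.3 and matplotlib 3.10.9 was used.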

Additional observations from a re-analysis of the deposited data

How the results depend on the processing

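Of 144 alternative values, 113 moved by less than the SD between probe sets of a gene (counts by at most 1.5 times), 31 moved further, and none turned its sign at 18 h. With quantile normalization the median log2 ratio of the 6 subunits at 18 h was −0.88, with −0.87 for MCM2, −1.15 for MCM3, −0.66 for MCM4, −1.20 for MCM5, −0.89 for MCM6 and −0.58 for MCM7. With each array divided by its trimmed mean it was −0.96, with −0.94, −1.23, −0.74, −1.23, −0.97 and −0.64 in the same order. By the median over every probe set, kept or not, MCM4 was at −1.75, and 4 subunits were below −1.5, against 2 by the brightest probe set. The number of kept MCM probe sets below −1.5 at 18 h was 5 with the deposited scaling. It was 1 with median centring, quantile normalization, the poly-A controls or the trimmed mean, and the number of subunits was then 0. With the hybridization controls there were 4 probe sets and 2 subunits. At a threshold of 1 there were 10 probe sets and 6 subunits, and at 2 there were 1 and 0. The 6 subunits below −1 were 2 with quantile normalization and 2 with the trimmed mean, and the pairs of subunits beyond the SD between probe sets were 8 with the SD of bright pairs, against 4, both chosen after seeing the data. Moves with the scaling follow from its construction, as it shifts all 6 subunits alike, except in quantile normalization. Part of the 113 values that moved little could not have moved. Dividing an array by a constant keeps the span between subunits. MCM2 and MCM3 have 1 probe set each, so other summaries of probe sets leave them the same. The shift of the median at 18 h from that of all genes ran from −1.15 without a filter to −0.89 with quantile normalization. Signals near the lowest kept mean of 34.0 limit the dim probe sets, and with 1 array per time the variation between cultures is not known. No paired analysis was possible because each group has a single array.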
